A study of Mus musculus with 6 samples.

Results

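The Notch pathway genes described here are the ligands *Dll1*, *Dll4*, *Jag1* and *Jag2*, the fringe enzymes *Lfng*, *Mfng* and *Rfng*, and the receptor-processing enzymes *Pofut1* and *Adam10*. They were chosen by gene symbol for their known roles, though with earlier results of these data known. All 9 were found among the 24062 genes of the count tables. The libraries came from CD31+ckit+ cells of the aorta-gonad-mesonephros (AGM) region of mouse embryos at embryonic day 10.5, where the first hematopoietic stem cells emerge from the aortic wall. The embryos were Gata2Venus (G2V/+): *Venus*, a fluorescent protein gene, was inserted behind an internal ribosome entry site at the *Gata2* locus on 1 of the alleles, and the labels give the strain as C57BL/6JOlaHsd. Cells were sorted by Venus level into a medium fraction (Vmed, labelled G2Vi) and a high fraction (Vhigh, labelled G2Vh), with 3 libraries each, numbered 1 to 3. Both fractions carry the reporter, and the dissected tissue included part of the vitelline and umbilical arteries. The paper that reported these libraries describes its sequencing values as means over independent experiments. Neither the paper nor the labels say whether the libraries of a fraction came from separate litters or how many embryos were pooled for them. The p-values below therefore measure the spread between libraries described as independent experiments, and part of that spread may still be technical.

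Notch receptors are activated by Delta-like and Jagged ligands on a neighboring cell. On its way to the surface the receptor receives O-fucose from the enzyme encoded by *Pofut1*, and fringes extend that fucose, which makes the receptor respond more readily to Delta-like ligands and, for *Lfng* and *Mfng*, less readily to Jagged ligands. Once a ligand has bound, the metalloprotease ADAM10 cuts the receptor outside the membrane, γ-secretase then cuts it within the membrane, and the freed intracellular part joins RBPJ on DNA. In the embryonic aorta *Dll4* is known from arterial endothelium, *Jag1* is required for blood formation in the AGM, and *Gata2* itself is a target of Notch.

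**Figure D1:**
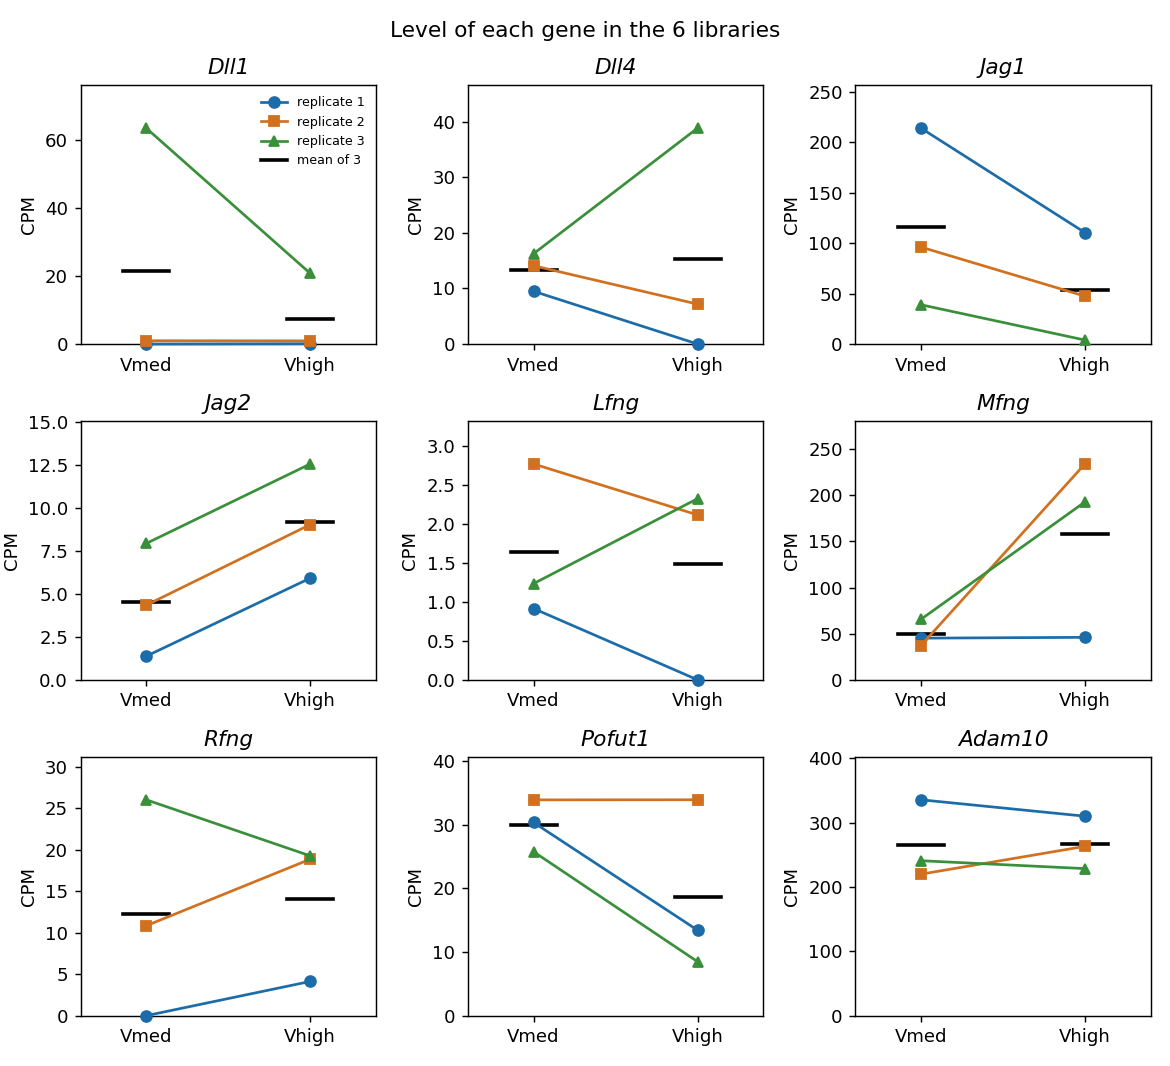
Levels in counts-per-million (CPM, vertical axes, each from 0) of the 9 genes in the Vmed and Vhigh libraries. Points are libraries, lines join libraries with the same replicate number and black bars are means of 3; Jag1 is lower in Vhigh on all 3 lines, from a top value of 214 CPM, Jag2 is higher on all 3, Mfng is higher on 2 and nearly level on the line of replicate 1, Dll1 was above 1 CPM only in the replicate 3 libraries, and Adam10 lies between 220 and 335 CPM.

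The upstream sequences of 3 genes are given first: those of *Dll4* and *Jag1*, the ligands whose ratio is given below, and that of *Lfng*, where letters of an RBPJ site were found. They are RefSeq sequences of build GRCm38.p6, read 5′ to 3′ on the strand of the gene and ending just before the outermost annotated start, and capitals mark the letters GTGGGAA or its core TGGGAA on either strand. The *Dll4* stretch lies at chr2:119325534-119325783 (plus strand, 250 bases), the *Jag1* stretch at chr2:137116645-137116770 (minus strand, 126 bases) and the *Lfng* stretch at chr5:140607091-140607319 (plus strand, 229 bases).
Dll4: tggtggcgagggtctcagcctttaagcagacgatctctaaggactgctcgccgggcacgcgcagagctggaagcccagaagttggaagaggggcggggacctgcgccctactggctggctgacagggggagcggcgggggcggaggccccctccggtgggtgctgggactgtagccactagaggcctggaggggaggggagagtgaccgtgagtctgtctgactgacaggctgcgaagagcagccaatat
Jag1: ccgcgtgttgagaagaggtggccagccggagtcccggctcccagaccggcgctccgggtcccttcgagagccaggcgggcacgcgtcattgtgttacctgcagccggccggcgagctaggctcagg
Lfng: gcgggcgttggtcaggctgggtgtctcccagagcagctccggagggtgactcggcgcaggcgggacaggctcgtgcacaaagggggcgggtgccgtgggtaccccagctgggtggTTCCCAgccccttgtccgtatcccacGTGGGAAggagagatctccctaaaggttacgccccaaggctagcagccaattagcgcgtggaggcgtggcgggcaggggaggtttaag
*Lfng* held GTGGGAA from 109 to 103 bases before its RefSeq start, which includes the core, and the core a second time on the other strand from 135 to 130 bases before it. Among the 250 bases before each RefSeq start, *Lfng* was the only one of the 8 members with an entry to hold either motif, whereas 5.42% of all 32851 windows of that length held GTGGGAA and 21.6% held TGGGAA. The GATA letters AGATAA and TGATAA, on either strand, were in 0 of the 9 member windows (*Dll1* has 2 starts) and in 9.99% and 7.94% of all windows. These are matches of letters in a window and do not show binding. *Mfng* had no entry.

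The libraries held 8296831 to 12035206 counts on genes, so that 3 counts, taken as the smallest number to be shown, corresponded to 0.249 to 0.362 CPM. Levels are given as counts-per-million (CPM) of each library's gene total. The libraries differed in ways the fractions did not share. The Vhigh 1 library detected 10427 genes against 12709 to 18460 in the others, and 23.8% of the 12688 genes tested had 0 counts in it against 0.575% to 8.17% elsewhere. The ribosomal RNA gene *Rn45s* took 10.5% and 7.47% of gene counts in Vmed 3 and Vhigh 3 and 0.887% to 1.53% in the others. *Pecam1*, which encodes CD31, and *Kit* were detected in all 6 libraries, at 118 to 569 CPM and 59.1 to 521 CPM. *Gata2*, which the Venus level reports, differed between same-numbered libraries by -0.36, 1.49 and 1.06 (log2, Vhigh minus Vmed), so it was lower in the library labelled Vhigh 1 than in Vmed 1; its log2 fold change was 0.78 (SE 0.74).

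Genes were compared with the quasi-likelihood test of edgeR and Benjamini-Hochberg adjustment over all 12688 genes tested. At an adjusted p of 0.05 it called 0 of these genes (percent called 0), and 259 genes (2.04%) had an unadjusted p under 0.05. The other tools called 21 genes (edgeR likelihood ratio test), 14 (edgeR exact test), 51 (DESeq2) and 0 (limma-voom). Of the 9 Notch genes, 8 passed the filter on low counts and *Dll1* did not. None of the 8 was called by any of these tests, and the adjusted p was 0.9998 for each in the quasi-likelihood test. *Mfng* had an unadjusted p under 0.05. Log2 fold changes were above 0 for 4 of the 8 and below 0 for 4. Their median was 0.05, beside -0.02 over all genes tested, and the median of their absolute values was 0.50 beside 0.60. The error was large for these genes as for the table as a whole: the median standard error was 1.41 on the log2 scale for the 8 and 1.29 for all genes tested. In a bulk library, fewer cells of a type and less RNA per cell cannot be told apart, which holds for each level that follows.

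**Figure D2:**
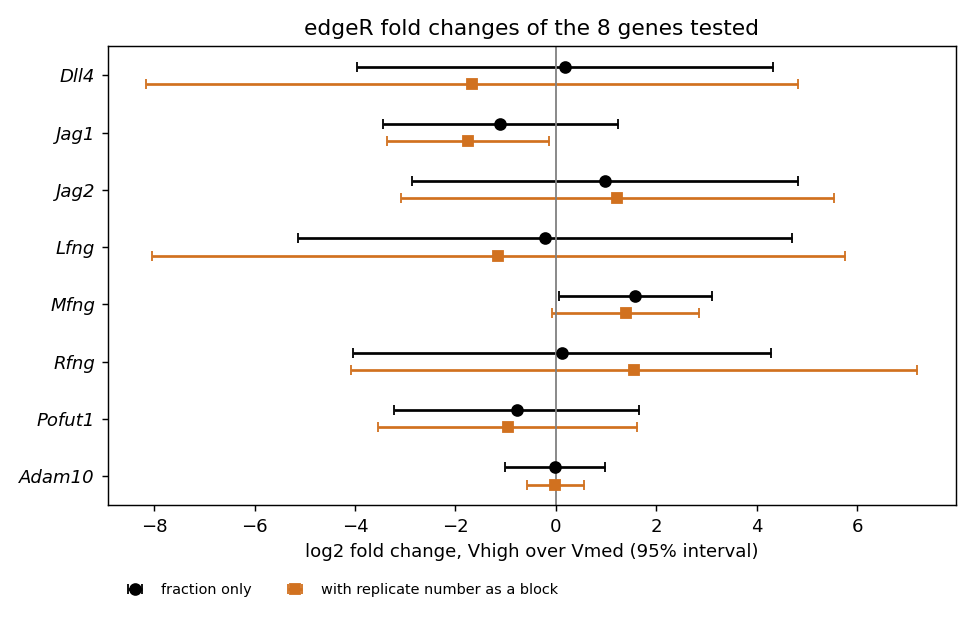
Log2 fold changes, Vhigh over Vmed (horizontal axis), from edgeR's quasi-likelihood test for the 8 genes that passed the filter, with 95% intervals; black circles are the fit on the fraction alone and orange squares the fit with the replicate number as a block. The interval of Mfng, 0.06 to 3.11, leaves out 0 in the first fit, that of Jag1 does so in the second, and the interval of Adam10 is the narrowest in both.

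*Jag1* (ENSMUSG00000027276.7, chromosome 2, 137081456 to 137116644, minus strand, GRCm38) encodes the Jagged ligand needed for blood formation in the AGM, and it had the highest mean level of the 4 ligands. It was counted 1870, 797 and 378 times in Vmed 1, 2 and 3, and 1177, 515 and 47 times in Vhigh 1, 2 and 3, which is 214, 96.1 and 38.9 CPM against 110, 47.4 and 3.91 CPM. Each Vhigh library was below the Vmed library of its number, but the fractions overlapped, since Vhigh 1 was above Vmed 2 and Vmed 3. Vmed was 1.94-fold, 2.03-fold and 9.96-fold above Vhigh in the pairs 1, 2 and 3. Being lower in all 3 pairs was shared by 15.4% of the genes tested. The log2 fold change of the fractions was -1.11 (SE 1.05, 95% interval -3.44 to 1.23, quasi-likelihood adjusted p = 0.9998), and the exact two-sided permutation test over the 20 arrangements of the libraries gave p = 0.5, where the smallest possible p is 0.1. With the replicate number as a block, the log2 fold change was -1.75 (SE 0.65, edgeR adjusted p = 0.987). The unadjusted p of that fit, 0.038, was under 0.05, as it was for 4.16% of all genes tested, and *Jag1* was the only member with such a value there.

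*Jag1* also varied within the fractions. Within Vmed it went from 38.9 to 214 CPM and within Vhigh from 3.91 to 110 CPM, with the replicate 3 library the lowest in each fraction. Replicate number held 68.1% of the sum of squares of log2 CPM, the fraction 23.0% and the rest 8.89%, where replicate number has 2 degrees of freedom and the fraction 1. Without Vmed 1 the log2 fold change was -0.26 (SE 1.19), and without Vhigh 1 it was -2.39 (SE 1.08).

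The genes whose pattern over the 6 libraries was nearest to that of *Jag1*, by the root mean square distance of centred log2 CPM among 9556 genes of mean CPM 10 or more, were *Fam117a* (distance 0.23), *Pdgfra* (0.44), *Napb* (0.48) and *Marcks* (0.52), where the median distance was 2.31. *Fam117a* was at 27.9, 14.2 and 5.15 CPM in Vmed and 12.01, 4.70 and 0.582 CPM in Vhigh. *Pdgfra*, a receptor that marks mesenchyme, was at 143, 133 and 34.3 CPM in Vmed and 65.7, 47.3 and 2.33 CPM in Vhigh. *Pdgfra* belongs to a list of 8 mesenchyme markers, with 7 of 8 log2 fold changes below 0 and none called by the quasi-likelihood test. Their summed level was 1296, 1951 and 3902 CPM in Vmed 1, 2 and 3, and 468, 336 and 179 CPM in Vhigh 1, 2 and 3. From library 1 to 3 the sum rose within Vmed, where *Jag1* fell, and fell within Vhigh, where *Jag1* also fell. In that list *Twist1* had 0 counts in Vmed 3 and Vhigh 3, and *Prrx1* in Vhigh 1. The summed levels of 8 macrophage markers (896 to 1532 CPM in Vmed, 129 to 415 CPM in Vhigh) and of 9 arterial endothelial markers (959 to 1735 CPM, 311 to 536 CPM) were also lower in Vhigh, with all log2 fold changes below 0 and none called by that test; *Emr1* and *C1qa* had 0 counts in Vhigh 1, *Emr1* also in Vhigh 2, and *Bmx*, *Cxcr4* and *Acvrl1* in Vhigh 1. Log2 fold changes were also below 0 for 8 of 10 endothelial, 4 of 4 venous endothelial and 4 of 6 megakaryocyte markers. They were below 0 for 5 of 6 tested erythroid and 6 of 7 tested epithelial or neural markers. None of these markers was called by the quasi-likelihood test. All 10 hematopoietic stem and progenitor markers, given below, went the other way. The part of these cell types in the *Jag1* level was not tested.

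*Dll4* (ENSMUSG00000027314.6, chromosome 2, 119325784 to 119335962, plus strand) encodes the Delta-like ligand of arterial endothelium. It had 83, 117 and 158 counts in Vmed 1, 2 and 3 and 0, 78 and 468 counts in Vhigh 1, 2 and 3. In CPM these are 9.50, 14.1 and 16.3 against 0, 7.18 and 38.9, so the 3 Vmed libraries lay close together while the Vhigh libraries held both the lowest and the highest value. In the first pair Vmed was at least 33.7-fold higher, taking 3 counts for the 0 of Vhigh 1; in the second pair Vmed was 1.96-fold higher; and in pair 3 Vhigh was 2.39-fold higher. The log2 fold change was 0.19 (SE 1.86, 95% interval -3.95 to 4.33, edgeR adjusted p = 0.9998). It turned to -1.67 (SE 2.63) with the replicate block, to -2.44 with limma-voom and to -2.03 without Vhigh 3, and it was 0.77 (SE 1.16) without Vhigh 1, so the direction was not settled.

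The 0 of *Dll4* in Vhigh 1 is read beside the state of that library: of the 1819 genes tested with a mean of 10 to 20 CPM, 34.9% had 0 counts there, against 0.550% to 5.77% in the other libraries. The patterns nearest to *Dll4* were those of *Elk1* (distance 0.29), *Fam20b* (0.36), *Ubald1* (0.42) and *Gga2* (0.43), with a median distance of 3.15 over the 9556 genes. *Elk1* had 8.24, 11.7 and 19.0 CPM in Vmed and 0, 10.6 and 33.8 CPM in Vhigh. *Gga2* had 65.4, 70.9 and 171 CPM in Vmed and 0.375, 62.1 and 182 CPM in Vhigh. Since the distance covers all 6 libraries, low values of these genes in Vhigh 1 follow from how they were chosen. *Dll4* shares 214 exon bases with *Gm14207* on the opposite strand, and the strand setting of the counting is not given in the sources used here; *Gm14207* reached at most 3.16 CPM. The summed arterial markers were lower in Vhigh in each pair, and *Dll4* was lower in Vhigh in pairs 1 and 2 and higher in pair 3; the part of the arterial cells in the *Dll4* level was not tested.

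*Dll1* (ENSMUSG00000014773.13, chromosome 17, 15367354 to 15376872, minus strand), the other Delta-like ligand, followed the replicate number. It had 0, 8 and 617 counts in Vmed 1, 2 and 3 and 1, 10 and 250 counts in Vhigh 1, 2 and 3. Thus 867 of its 886 counts came from the 2 libraries numbered 3, at 63.5 CPM in Vmed and 20.8 CPM in Vhigh, and the other 4 libraries were at 0.964 CPM or less. Replicate number held 97.3% of its sum of squares and the fraction 0.0334%. It did not pass the filter; in a fit of all genes with at least 1 count its log2 fold change was -1.57 (SE 1.77, edgeR adjusted p = 0.99997). *Dll1* shares 867 exon bases with *A930024N18Rik* on the opposite strand, which is not among the genes of the tables. The libraries numbered 3 are also those rich in *Rn45s*, and the part of this in the *Dll1* level was not tested.

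*Jag2* (ENSMUSG00000002799.6, chromosome 12, 112907819 to 112929776, minus strand) encodes the second Jagged ligand and was low. It was at 1.37, 4.34 and 7.93 CPM in Vmed 1, 2 and 3 and at 5.91, 9.02 and 12.5 CPM in Vhigh 1, 2 and 3. Vhigh was above Vmed in each pair, by 4.30-fold, 2.08-fold and 1.58-fold, which is the opposite order to *Jag1*, and the fractions overlapped. Being higher in all 3 pairs was shared by 15.2% of the genes tested. This gave a log2 fold change of 0.97 (SE 1.73, 95% interval -2.87 to 4.82, edgeR adjusted p = 0.9998; exact permutation p = 0.2). It was 0.55 without Vmed 1 and 1.68 without Vmed 3.

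**Figure D3:**
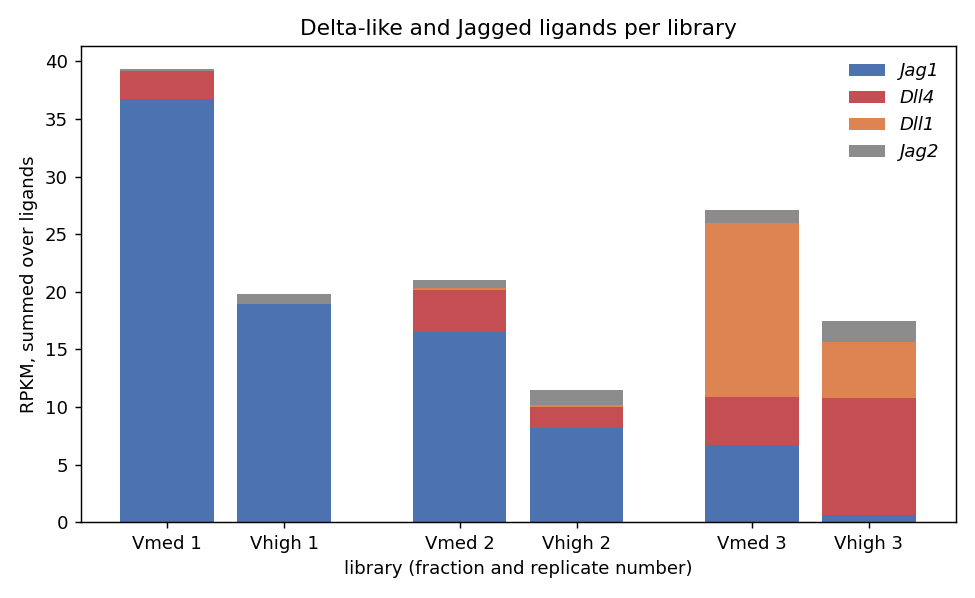
Levels per length of the 4 ligands (vertical axis, RPKM, stacked) in the 6 libraries, with libraries of the same replicate number side by side. Jag1 makes up most of each bar in replicates 1 and 2, from 70.7% to 95.6%, whereas Dll1 leads in Vmed 3 and Dll4 in Vhigh 3, and each Vhigh bar is lower than the Vmed bar beside it.

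Levels of different genes were compared per length, as CPM per kilobase of exon (RPKM). *Jag1* led the ligands in 4 libraries, with 36.7 and 16.5 RPKM in Vmed 1 and 2 and 18.9 and 8.14 RPKM in Vhigh 1 and 2, which was 70.7% to 95.6% of the summed ligand level. In replicate 3 other ligands led. *Dll1* was first in Vmed 3 with 15.1 RPKM, ahead of *Jag1* with 6.68 RPKM, and *Dll4* was first in Vhigh 3 with 10.1 RPKM, ahead of *Dll1* with 4.92 RPKM, while *Jag1* was at 0.670 RPKM, 3.83% of the sum. *Dll4* made up 0 to 17.4% of the ligand sum in the other libraries.

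The log2 ratio of *Dll4* to *Jag1*, in RPKM with 0.5 counts added, was -3.89, -2.17 and -0.66 in Vmed 1, 2 and 3. In Vhigh 2 and 3 it was -2.12 and 3.90, and in Vhigh 1, where *Dll4* was at 0, it was at most -8.02 with 3 counts in place of 0. The Vhigh libraries lay on both sides of the Vmed libraries, and the difference of the means was -0.70 (exact permutation p = 0.9). Its sign rests on the value used for the 0 of Vhigh 1: it was -0.06 with 2 counts added and 0.16 with 3 counts in place of 0. Without Vhigh 1 the difference was 3.13 and without Vhigh 3 it was -4.12. Summed over the 4 ligands, the level was 225, 115 and 127 CPM in Vmed 1, 2 and 3 and 116, 64.5 and 76.1 CPM in Vhigh 1, 2 and 3. It was lower in Vhigh in all 3 pairs, by 0.84 on the log2 scale on average, and the lowest Vmed value lay just below the highest Vhigh value.

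*Mfng* (ENSMUSG00000018169.12, chromosome 15, 78755882 to 78773475, minus strand) had the highest level per length of the fringes in each of the 6 libraries. It had 395, 308 and 637 counts in Vmed 1, 2 and 3 and 491, 2542 and 2321 counts in Vhigh 1, 2 and 3, or 45.2, 37.1 and 65.6 CPM against 46.1, 234 and 193 CPM. The first pair was nearly equal, with 1.02 times as much in Vhigh, whereas Vhigh was 6.30-fold and 2.94-fold above Vmed in pairs 2 and 3. The log2 fold change was 1.59 (SE 0.69, 95% interval 0.06 to 3.11, edgeR adjusted p = 0.9998), with an unadjusted p of 0.043; the fractions overlapped through Vhigh 1, and the exact permutation test gave p = 0.2. With the replicate block it was 1.39 (SE 0.60, edgeR adjusted p = 0.987), with an unadjusted p of 0.060. *Mfng* was the only member for which the fraction held the largest share of the sum of squares, 45.2%, beside 28.5% for replicate number. Each library left out in turn gave values from 1.24 (SE 0.89, without Vhigh 2) to 2.00 (SE 0.55, without Vhigh 1). Without both libraries of replicate 1, 2 or 3 it was 1.97 (SE 0.54), 1.04 (SE 1.09) and 1.62 (SE 0.96).

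All 10 genes of a list of hematopoietic stem and progenitor markers had log2 fold changes above 0, none of them called by the quasi-likelihood test. The list includes *Gata2*, whose reporter level defined the fractions, and *Kit*. The summed level of the 10 genes was 489 to 1082 CPM in Vmed and 995 to 2783 CPM in Vhigh. *Gfi1* had 0 counts in Vmed 1 and Vmed 3 and *Spn* in Vmed 3. *Kit*, which was used in the sort, had a log2 fold change of 1.91 (SE 0.59, edgeR adjusted p = 0.9998). It was called by the likelihood ratio test with the replicate block (adjusted p = 0.034). Its fractions did not overlap, as was the case for 8.87% of the genes tested; none of the 9 Notch genes had fractions that did not overlap. The part of the cell composition in the *Mfng* level was not tested.

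*Rfng* (ENSMUSG00000025158.7, chromosome 11, 120780746 to 120784207, minus strand), the radical fringe, had 0, 90 and 253 counts in Vmed 1, 2 and 3 and 44, 205 and 232 counts in Vhigh 1, 2 and 3. The levels were 0, 10.8 and 26.0 CPM against 4.13, 18.9 and 19.3 CPM, and both replicate 1 libraries were the lowest of their fractions. Vhigh was at least 12.03-fold higher in the first pair, again with 3 counts for the 0, 1.74-fold higher in pair 2, and Vmed was 1.35-fold higher in pair 3. For *Rfng* the log2 fold change was 0.13 (SE 1.87, edgeR adjusted p = 0.9998), and without Vmed 1, the library at 0, it was -0.45 (SE 1.58).

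*Lfng* (ENSMUSG00000029570.5, chromosome 5, 140607320 to 140615545, plus strand), the lunatic fringe, had the lowest mean level per length of the 9 genes. It was counted 8, 23 and 12 times in Vmed 1, 2 and 3 and 0, 23 and 28 times in Vhigh 1, 2 and 3, which is 0.915, 2.77 and 1.24 CPM against 0, 2.12 and 2.33 CPM. For *Lfng* the log2 fold change was -0.21 (SE 2.22, 95% interval -5.14 to 4.71, edgeR adjusted p = 0.9998). At these counts a difference between the fractions was not detectable.

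The log2 ratio of *Lfng* to *Mfng*, in RPKM with 0.5 counts added, was -5.36, -3.53 and -5.49 in Vmed 1, 2 and 3. In Vhigh 2 and 3 it was -6.58 and -6.17, and in Vhigh 1 at most -7.17 with 3 counts of *Lfng* in place of 0. All 3 Vhigh libraries thus lay below all 3 Vmed libraries. The place of Vhigh 1 rests on its 0 counts of *Lfng*, in a library where 23.8% of the genes tested had 0 counts. *Mfng* itself was nearly equal in pair 1, at 45.2 CPM in Vmed 1 and 46.1 CPM in Vhigh 1. How many other gene ratios separate the fractions in this way was not counted. The difference of the means was -2.71 with 0.5 counts added, -2.14 with 2 counts added and -1.84 with 3 counts in place of the 0, and the exact two-sided permutation test gave p = 0.1, the smallest p that 3 against 3 libraries allow, so the design could not reach 0.05. The difference ranged from -3.37 to -1.58 with each library left out in turn, and it was -1.86 without both replicate 1 libraries. Summed fringe levels were 46.1, 50.7 and 92.8 CPM in Vmed 1, 2 and 3 and 50.2, 255 and 214 CPM in Vhigh 1, 2 and 3, higher in Vhigh in each pair and by 1.22 on the log2 scale on average. This difference was 0.79 without Vhigh 2 and 1.96 without Vhigh 1. *Mfng* made up most of the fringe sum in each library, with 46.1, 234 and 193 CPM in Vhigh 1, 2 and 3. *Lfng* was lower in Vhigh in pairs 1 and 2, and *Rfng* was lower in pair 3. Among single genes tested, 15.2% were higher in Vhigh in all 3 pairs.

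*Pofut1* (ENSMUSG00000046020.13, chromosome 2, 153241533 to 153270247, plus strand) encodes the O-fucosyltransferase that gives fringes their substrate. It was at 30.3, 33.9 and 25.7 CPM in Vmed 1, 2 and 3 and at 13.4, 33.9 and 8.48 CPM in Vhigh 1, 2 and 3. In CPM the second pair was equal to 3 digits, whereas Vmed was 2.26-fold and 3.04-fold higher in pairs 1 and 3. With TMM normalization, which the test used, Vhigh was lower in all 3 pairs. How many of the genes tested share this was not counted. Between the fractions the log2 fold change was -0.78 (SE 1.097, 95% interval -3.22 to 1.66, edgeR adjusted p = 0.9998). It was -1.38 without Vhigh 2 and -0.40 without Vhigh 3. The Vmed libraries lay within 25.7 to 33.9 CPM and the Vhigh libraries spread from 8.48 to 33.9 CPM.

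*Adam10* (ENSMUSG00000054693.14, chromosome 9, 70678997 to 70780229, plus strand), the protease of the ligand-induced cut, had the highest mean level per length and the smallest spread of the 9 genes. It was at 335, 220 and 241 CPM in Vmed 1, 2 and 3 and at 310, 263 and 229 CPM in Vhigh 1, 2 and 3, a span of 1.53-fold from the lowest to the highest library. The log2 fold change was -0.02 (SE 0.45, edgeR adjusted p = 0.9998), with a 95% interval of -1.02 to 0.98 that leaves room for a change of up to about that size in either direction. What spread there was went with the replicate number, at 85.9% of the sum of squares, with both replicate 1 libraries the highest of their fractions.

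**Figure D4:**
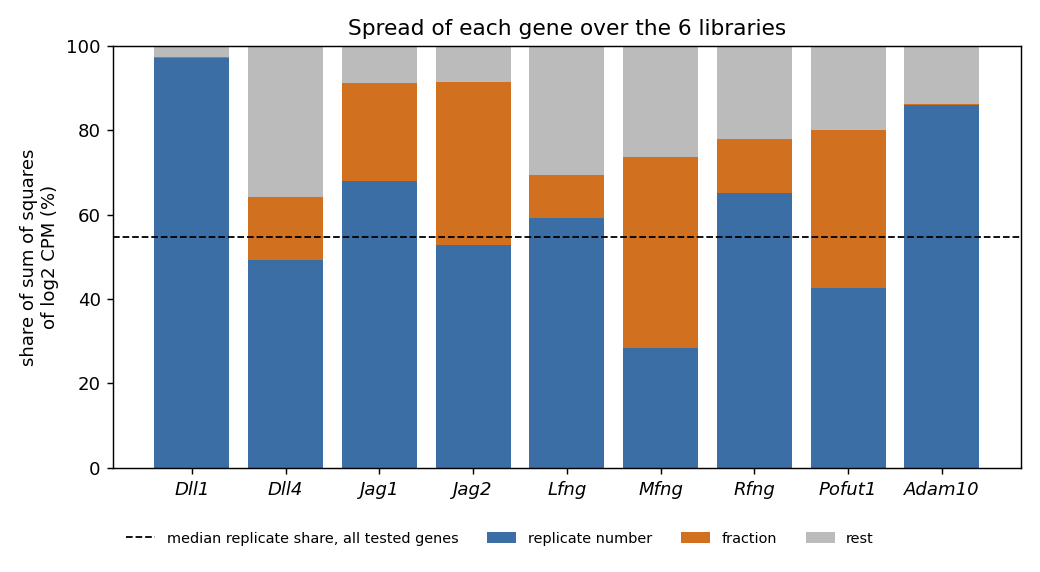
Share of the sum of squares of log2 CPM over the 6 libraries (vertical axis, percent) that goes with replicate number (blue), fraction (orange) and the rest (grey) for each of the 9 genes. The dashed line at 54.8% is the median replicate share over all genes tested; Dll1 is highest at 97.3% and Mfng lowest at 28.5%.

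For most of the 9 genes replicate number held a larger share of the sum of squares than the fraction, as in the table as a whole. Replicate number has more degrees of freedom than the fraction, so noise alone would also give it a larger share. The shares were not corrected for this, so they do not show which of them weighed more. Replicate number held the largest of the 3 shares for 8 of the 9 genes and for 63.3% of all genes tested. The median replicate share was 56.1% for the 8 members tested and 54.8% for all genes tested, and the median share of the fraction was 19.0% and 11.7%. The rest, which has as many degrees of freedom as replicate number, had median shares of 21.1% and 23.6%. Of the 9 members, 4 had 0 counts in some library: *Dll1* and *Rfng* in Vmed 1, and *Dll4* and *Lfng* in Vhigh 1. The shares of these 4 genes depend on the 0.5 counts added before taking the log2.

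By mean RPKM over the 6 libraries the order was *Adam10* (54.2 ± 9.52, SD, n = 6), *Mfng* (36.4 ± 30.5), *Jag1* (14.6 ± 12.7), *Rfng* (5.30 ± 4.002), *Dll4* (3.72 ± 3.46), *Dll1* (3.41 ± 6.02), *Pofut1* (2.45 ± 1.096), *Jag2* (0.984 ± 0.558) and *Lfng* (0.623 ± 0.412). No neighbors in this order kept their places in all 6 libraries. The nearest to it was *Pofut1* above *Jag2*, in 5 libraries, followed by *Adam10* above *Mfng*, *Jag1* above *Rfng*, *Rfng* above *Dll4*, *Dll4* above *Dll1* and *Jag2* above *Lfng* in 4. *Mfng* was above *Jag1* in 3 libraries and *Dll1* above *Pofut1* in 2. With the longest transcript as the length in place of all exons, *Pofut1* moved above *Dll1* and *Dll4*, at 4.34 RPKM.

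The rest of the pathway was described by 9 lists of Notch genes. With the members they hold 73 genes, of which 63 were tested and 0 were called in either direction by the quasi-likelihood test; 33 log2 fold changes were above 0 and 30 below, with a median of 0.02 beside -0.02 over all genes tested. *Mfng* was the only one with an unadjusted p under 0.05 in the fit on the fraction alone, where 2.04% of all genes tested had such a p. In the fit with the replicate block 3 of the 63 genes had such a p, beside 4.16% of all genes tested. These were *Jag1*, *Eogt* and *Myc*, with an edgeR adjusted p of 0.987 for each.

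Among the receptors, *Notch2* was at 157 ± 175 CPM (SD, n = 3) in Vmed and 99.2 ± 68.6 CPM in Vhigh. *Notch1* was at 130 ± 80.2 CPM and 69.1 ± 5.98 CPM, with a log2 fold change of -0.92 (SE 0.68). *Notch3* and *Notch4* were lower, at means over all libraries of 21.1 and 19.2 CPM. Of the 4 receptors, 3 had log2 fold changes below 0 and *Notch3* one of 0.66 (SE 1.26).

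The non-canonical ligand *Dlk1* was at 66.5 ± 80.3 CPM in Vmed and 25.3 ± 21.0 CPM in Vhigh and lower in Vhigh in all 3 pairs, with a log2 fold change of -1.47 (SE 1.21). *Dll3* did not pass the filter, with at most 1.03 CPM, and *Dlk2* had 0 counts in all 6 libraries. In the list on ligand ubiquitination and endocytosis, steps by which the sending cell pulls on the bound receptor, 6 of 7 log2 fold changes were above 0. The exception was *Epn2*, an endocytic adaptor, at 48.6 ± 41.0 CPM in Vmed and 11.2 ± 13.6 CPM in Vhigh, with a log2 fold change of -2.12 (SE 1.59). *Dnm2*, the dynamin of endocytosis, had one of 0.03 (SE 0.99).

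Of 10 tested genes of Notch glycosylation, which include the fringes and *Pofut1*, 5 had log2 fold changes above 0 and 5 below. *Eogt*, which adds N-acetylglucosamine to the same kind of receptor repeats, was at 95.5 ± 12.9 CPM in Vmed and 27.9 ± 28.8 CPM in Vhigh. Its fractions did not overlap, as was the case for 8.87% of the genes tested. The log2 fold change of *Eogt* was -1.81 (SE 0.89, edgeR adjusted p = 0.9998). *Poglut1*, the O-glucosyltransferase, was at 94.0 ± 32.2 CPM and 107 ± 20.6 CPM, a log2 fold change of 0.14 (SE 0.56). *Gmds*, which makes the fucose donor, had one of -0.56 (SE 1.57) and 0 counts in 1 library.

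Of the 9 cleavage genes tested, *Adam10* included, 3 had log2 fold changes above 0 and 6 below. *Adam17*, the related protease, was at 71.6 ± 40.3 CPM in Vmed and 87.5 ± 17.9 CPM in Vhigh, a log2 fold change of 0.26 (SE 0.66). Per length, *Adam10* was at a mean of 54.2 RPKM over the 6 libraries and *Adam17* at 11.1 RPKM. The γ-secretase subunit *Ncstn* had a log2 fold change of -0.40 (SE 0.55). *Tspan14*, a tetraspanin that carries ADAM10 to the cell surface, was at 301 ± 82.2 CPM in Vmed and 282 ± 19.2 CPM in Vhigh, with a log2 fold change of -0.11 (SE 0.43), and was the most abundant of the 4 tetraspanin partners tested. *Tspan5*, *Tspan15* and *Tspan17* each had 0 counts in 1 library, and their log2 fold changes were 0.02 (SE 1.59), 0.23 (SE 1.99) and 2.89 (SE 2.29).

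In receptor trafficking, the ubiquitin ligase *Nedd4* was by far the most abundant gene, at 1918 ± 910 CPM in Vmed and 1322 ± 550 CPM in Vhigh, a log2 fold change of -0.57 (SE 0.50). *Itch*, a related ligase, had one of 0.58 (SE 0.63) and *Numb*, an inhibitor of Notch, one of -0.29 (SE 0.79). In the nucleus, the coactivator *Maml2* was at 101 ± 75.7 CPM in Vmed and 30.3 ± 31.3 CPM in Vhigh, lower in Vhigh in all 3 pairs, with a log2 fold change of -1.85 (SE 1.01). *Snw1*, *Kat2a* and *Hdac1* had log2 fold changes of 0.22 (SE 0.56), 0.34 (SE 0.85) and -0.04 (SE 0.61).

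Among 7 tested Notch target genes, 4 had log2 fold changes above 0 and 3 below. *Hes1*, a repressor induced by Notch, was at 39.8 ± 24.2 CPM in Vmed and 38.9 ± 24.6 CPM in Vhigh, with a log2 fold change of -0.02 (SE 0.98, 95% interval -2.20 to 2.16). Replicate number held 98.8% of its sum of squares. *Myc* was at 86.6 ± 70.2 CPM and 210 ± 122 CPM, higher in Vhigh in all 3 pairs, with a log2 fold change of 1.23 (SE 0.94). *Ccnd1*, a cyclin, was lower in Vhigh in all 3 pairs, by 0.42, 0.49 and 0.39 on the log2 scale, while its log2 fold change was -0.43 (SE 0.71).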

How the data were processed

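RNA was extracted from the sorted cells with the mirVana kit, amplified by the SMARTer protocol and sequenced as single reads of 50 bases. Raw counts per gene, not normalized, were deposited for each library from alignments to GRCm38/mm10 made by the authors; the submitters' processing notes name TopHat, Bowtie 1.1.2 and HTSeq. The annotation and the strand setting of the counting are not given in the sources used here. Lines of reads not assigned to a gene were left out: reads without a feature were 7.09% to 35.6% and reads that aligned to several places 41.3% to 57.7% of all lines of a library.

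The fractions were compared with edgeR 4.0.16 (R 4.3.3): filterByExpr with a minimum count of 10 (12688 of 24062 genes), TMM normalization and the quasi-likelihood test on the fraction alone. The standard error is the log2 fold change divided by the square root of F. CPM used each library's gene total, which was 8296831 to 12035206; 3 counts set the floor, and limits of this kind cover counting error only. Log2 CPM used 0.5 added counts. RPKM used exon unions of GENCODE vM21 (GRCm38). Single values were compared by exact two-sided permutation of 20 arrangements with scipy 1.17.1.

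The labels give both fractions the replicate numbers 1 to 3. Deviations from the fraction means correlated at 0.189, 0.211 and 0.361 across 12688 genes for same-numbered libraries and at -0.268 to 0.00657 for the others, so the numbers were taken to pair the libraries, on the labels and this check; the labels do not say what a number shares. Deviations from the mean of 3 libraries sum to 0, so these correlations are not independent of each other. Correlations of the log2 CPM levels themselves were highest for the same number in pairs 2 and 3, at 0.764 and 0.752. They did not single out pair 1, where Vmed 1 correlated at 0.557 with Vhigh 1 and at 0.655 with Vhigh 2. The pairing of the libraries numbered 1 is therefore the least certain. No libraries were duplicates within counting noise.

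Alternatives were DESeq2 1.42.0, limma-voom (limma 3.58.1), edgeR's other tests, other normalizations and filters, removal of *Rn45s*, a replicate block, and each library left out; leaving out both libraries of a number, and 3 counts in place of 0 in the ratios, were chosen after seeing the data. Scripts were tested on simulated data without a replicate effect, so that test does not show how they perform on these libraries. The genes, the lists and the tests were chosen with earlier results of these data known. All 9 members were named, with *Gata2*, *Kit* and *Pecam1*, up to 4 genes of each Notch list by mean CPM, and the 4 nearest patterns to *Dll4* and *Jag1*; a gene that this rule names is not reported here. Promoter sequences are from RefSeq (GRCm38.p6). No protein sequence was used here.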

Additional observations from a re-analysis of the deposited data

How the results depend on the processing

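Of 167 fits of the 8 members under alternatives, 148 kept the direction, 19 changed it and 0 passed the adjusted threshold, with a smallest adjusted p of 0.66 (*Jag1*, edgeR likelihood ratio test with the replicate block). *Jag1*, *Jag2*, *Mfng* and *Pofut1* kept their direction in every fit, as did both sums and the ratio of *Lfng* to *Mfng*. *Dll4* turned to -2.44 with limma-voom, to -1.67 and -1.68 with the replicate block (quasi-likelihood and likelihood ratio tests) and to -1.90 without both replicate 3 libraries; each library left out in turn gave -2.03 to 0.77. *Adam10* was 0.0106 with library sizes alone, 0.0165 without both replicate 1 and 0.00654 without both replicate 3 libraries, and -0.22 to 0.22 with each library left out. *Lfng* was 0.10 without both replicate 1 libraries and -0.74 to 0.37 with each library left out. *Rfng* was -0.0352 and -0.158 without both replicate 1 or both replicate 2 libraries and -0.45 to 1.37 with each library left out. The cause was not tested. The ratio of *Dll4* to *Jag1* changed sign with single libraries and with the value used for 0 counts, as given above.

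The count of genes past the threshold, 0, was 37 without the filter, 21 and 14 with edgeR's likelihood ratio and exact tests, 51 with DESeq2 and 74 with the replicate block and the likelihood ratio test. It was 0 to 1 with each library left out. Quasi-likelihood fits with the replicate block called 0 genes, and the block changed the call of no member. DESeq2 gave no adjusted p for *Lfng*. Depth limits *Lfng* most, with 94 counts in all, then *Jag2* with 437.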
